A study of Mus musculus with 2 samples.

Results

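The cells described here are the 500 base cells that scored highest for 5 genes, Thbs1, Mcemp1, Fpr1, Cacna1d and Inpp5j, in a single-cell survey of mouse tumours. The study made 2 droplet libraries of mCherry-sorted cells from pooled tumours, both marked d7 in the labels. The adult library came from mice 24 weeks old and the young library from mice 4 weeks old, with 1 library per age. The labels give no strain, genotype, tumour type, number of animals or source of mCherry. Base cells were barcodes with at least 200 genes, at most 10% mitochondrial UMIs, fewer than 2 UMIs of the mCherry construct and at least 1 UMI of Csf1r, the receptor that supports monocytes and macrophages. There were 9655 base cells among 13837 barcodes, 4265 in the adult library and 5390 in the young library. The score was the mean of ln(1 + UMIs per 10000) over the 5 genes, and the 500 highest cells are called members. They comprised 68 adult and 432 young cells, and the other 4197 adult and 4958 young base cells are what they were compared with.

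Monocytes leave the blood, enter tumours and mature there into macrophages. Recent arrivals typically carry genes of the inflammatory and chemotactic programme, while settled macrophages carry complement C1q, scavenger and antigen-presentation genes. The 5 genes of the score have separate roles. Thbs1 encodes thrombospondin-1, a secreted matrix glycoprotein that binds CD36 and CD47 and can activate latent TGF beta. Fpr1 encodes a receptor for formylated peptides of bacteria and mitochondria, by which phagocytes find damaged tissue. Cacna1d encodes the pore of a voltage-gated L-type calcium channel, Inpp5j an inositol polyphosphate phosphatase, and Mcemp1 a membrane protein first described in mast cells.

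The 2 libraries held 70988070 UMIs (adult) and 84862471 UMIs (young) in 6279 and 7558 barcodes. Neither age has a replicate library, so no test was made. The intervals given are 95% intervals and reflect counting error alone. They are exact, except that of the ratio of adult to young shares of members, which is approximate. Age, tumour pool, sort, library and run cannot be told apart. A level is the summed UMIs of a gene per 1000000 summed UMIs of a group of cells (CPM). A gene is called higher or lower in members where the 2 libraries both showed a ratio of at least 1.5-fold in the same direction, with both intervals excluding 1. The libraries shared 111 barcodes. Of the members, 4 carried such a barcode, and no barcode was a member in both.

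Members were chosen by the UMIs of the 5 genes, so these levels are a description. Thbs1 (chr2:118111876-118127133, mm10) had 2274 and 1720.0 CPM in adult and young members, against 239 and 339.6 CPM in adult and young other base cells. Mcemp1 (chr8:3665754-3669259) had 453 and 514 CPM in adult and young members, against 125 and 156 CPM in adult and young other base cells. Fpr1 (chr17:17876471-17883940) had 127 and 110.4 CPM in adult and young members, against 5.92 and 16.7 CPM in adult and young other base cells. Thbs1 and Mcemp1 were the shared base of the score, with a UMI of both in 463 of the 500 members. Cacna1d (chr14:30039939-30491455) had 136 and 165 CPM in adult and young members, against 18.8 and 39.1 CPM in adult and young other base cells. Inpp5j (chr11:3494375-3504821) had 16.2 and 57.4 CPM in adult and young members, against 3.597 and 19.1 CPM in adult and young other base cells, from 8 UMIs in adult and 241 UMIs in young members. Fpr1 and Inpp5j were detected together in 85 members, and 171 members had neither.

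Few members carried every gene of the score. Of the 68 adult members, 12 had a UMI of 2 of the 5 genes, 42 had 3 and 14 had 4. Of the 432 young members, 31 had 2 of the genes, 178 had 3, 174 had 4 and 49 had all 5, a combination that no adult member showed. It was not limited to members, since 1 adult and 33 young other base cells had all 5 genes, and 30 adult and 276 young ones had 4. The score fell off smoothly, with no gap at the border. The 10 cells just inside it scored 1.03292 to 1.03444 (1 adult and 9 young cells) and the 10 just outside scored 1.0309 to 1.03269 (4 adult and 6 young cells). The 500 cells are the top of a range of scores, and whether they form a separate cluster was not tested.

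**Figure D1:**
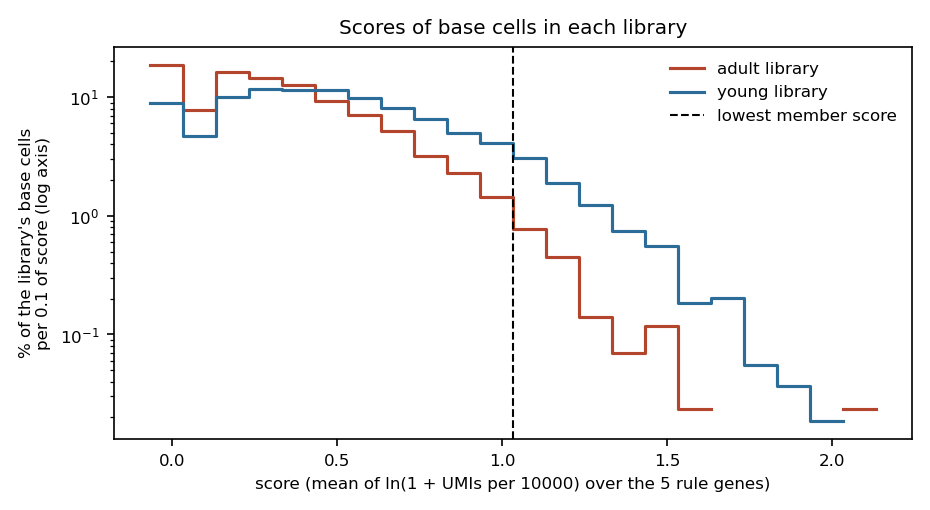
Share of each library's base cells (%, log axis) per 0.1 of the score for the adult (red) and young (blue) libraries, with the lowest member score as a dashed line. The young library runs above the adult one in every bin beyond the line except the last, and neither shows a gap at the line. The highest single score, 2.04412, is an adult cell.

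Members made up 1.59% of the adult base cells (95% interval 1.24 to 2.02) and 8.01% of the young base cells (7.30 to 8.77), a ratio of adult to young shares of 0.199 (0.155 to 0.256). The ratio was 0.297 when only cells with at least 3000 UMIs were used and thinned to 3000 before scoring. It was 0.147 and 0.289 when the 250 or the 1000 highest cells were taken. Members were shallower than other base cells, with medians of 7069 UMIs in adult and 9188 UMIs in young members, against 10129 and 10437.5 UMIs. The medians of genes per cell were 1978.5 and 2393.5 in adult and young members, against 2484 and 2604.5 in the other base cells. A fixed number of UMIs weighs more in a shallow cell, and the part of depth in the choice of members was tested only by the thinned score. That score left out all cells with under 3000 UMIs, among them 11 adult and 25 young members, so it does not cover the shallowest cells. The choice of cells depended on the score, since 288 of the 500 members (57.6%) were picked again by the thinned score. The score without Thbs1 picked 302 of them again (60.4%).

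Members lay near each other in genes that the score did not use. In 30 principal components of 2000 variable genes without the 5 genes of the score, 6.76% of the 15 nearest cells of an adult member were members, against 1.01% for the other adult base cells and 1.59% of members in the library. The values in the young library were 20.1% for members, against 6.30% for the other base cells and 8.01% of members in the library. Of 68 adult members, 41 had no member among their nearest cells, against 39 of 432 in the young library, where members were a larger share of base cells. Relative to the share of members in the library, member neighbours were 4.24-fold (adult) and 2.51-fold (young) as frequent. Members with at least 2 neutrophil UMIs had 15.3% member neighbours in the adult and 24.5% in the young library, against 3.92% and 19.1% for the other members. Of those 51 other adult members, 34 had no member among their nearest cells.

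The name macrophage fitted the markers in part. All 68 adult and 432 young members had at least 2 UMIs of 10 macrophage markers, as did 100% of adult and 99.9% of young other base cells. The list includes Csf1r, which every base cell had to carry. Of these 10, none was higher and 1, C1qa, was lower in members, with a list median of 0.09 (log2 ratio, mean of the libraries). Over all 6981 genes at 10 CPM or more, the level at which a list gene counts as measured, 2.03% were higher, 1.92% lower, and the median was -0.04. Csf1r itself had 384 and 368 CPM in adult and young members, against 374 and 375 CPM in adult and young other base cells. Lyz2, the lysozyme of myeloid cells, had 6790.4 and 9265 CPM in adult and young members, against 5763 and 6802 CPM in adult and young other base cells. Of 10 monocyte markers, 6 were higher and none lower, with a median of 0.80. Ly6c2, the marker of inflammatory blood monocytes, had 2234 and 2684 CPM in adult and young members, against 1092 and 1678 CPM in adult and young other base cells, a ratio of 2.05-fold (95% interval 1.93 to 2.17) in the adult library and 1.600-fold (1.57 to 1.63) in the young library. F13a1, coagulation factor XIII of monocytes, had 134 and 93.3 CPM in adult and young members, against 40.1 and 44.7 CPM in adult and young other base cells. The others were Plac8, Ifitm6, Hp and Vcan, the last not called without cells that held at least 2 UMIs of 8 neutrophil genes (neutrophil-marked cells), whereas the recruitment receptor Ccr2 had 314 and 225 CPM in adult and young members, against 337 and 234 CPM in adult and young other base cells. At least 2 UMIs of the monocyte markers were found in 65 of 68 adult (95.6%) and 426 of 432 young members (98.6%). The other base cells gave 98.2% and 99.1%. Nearly all members thus carried genes of both lists, as did nearly all other base cells.

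Defining genes of most other cell types were at or near 0 in members. All 9 mast cell and basophil markers, including Cpa3, Kit and Mcpt8, were at 0 in adult members, as were 7 of 9 in young members with 3 UMIs in all, although Mcemp1 is named after mast cells. All 6 fibroblast and all 5 B cell markers were at 0 in adult members, and young members held 11 and 17 UMIs of them. The 10 T and NK cell markers gave 3 UMIs in adult and 10 UMIs in young members. Of the 8 platelet markers, Itga2b, Gp9 and Tubb1 were among the 5 at 0 in adult members, whereas Pf4, which macrophages also express, was present.

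Other marker lists were raised in part. Of 12 alveolar macrophage markers, 6 were at 0 in adult members and 6 in young members, Siglecf and Marco among them, and the 2 measured ones, Chil3 and Il18, were higher. The list summed to 862 and 292 CPM in adult and young members, against 406 and 171 CPM in adult and young other base cells. The platelet markers summed to 210.4 and 529 CPM in adult and young members, against 272 and 226 CPM in adult and young other base cells. Most of this was Pf4, with 202 and 504 CPM in adult and young members, against 267 and 222 CPM in adult and young other base cells, and only its young ratio of 2.27 passed 1.5-fold. The part of either list in the other results was not tested.

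The neutrophil markers had the highest list median, 1.35, with 7 of 10 measured markers higher and none lower. Their 12 genes summed to 4909 CPM in adult and 753 CPM in young members, against 204 and 147 CPM in the other base cells. The median member held little of it, at 1.76 (adult) and 1.79 (young) UMIs per 10000, with highest cells at 1639 and 1770 UMIs per 10000. Of the 1079 S100a9 UMIs of the adult members, 99.7% lay in 10 of the 68 cells, and of the 987 UMIs of the young members 92.6% lay in 10 of the 432 cells. Of the 12, the 8 genes used to mark cells were Csf3r, Cxcr2, Retnlg, Hdc, Mmp8, Lcn2, Ngp and Ltf. At least 2 UMIs of these 8 neutrophil genes were found in 17 adult members (25.0%) and 81 young members (18.8%), against 8.74% and 9.52% of the other base cells. Whether these cells are neutrophils, doublets or macrophages with taken-up RNA was not tested.

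The leading genes of the contrast therefore came with and without those cells. S100a9 and S100a8 encode the subunits of calprotectin, and G0s2 an inhibitor of triglyceride lipase. S100a9 had 2183 and 235 CPM in adult and young members, against 51.00 and 29.96 CPM in adult and young other base cells. In base cells with under 2 neutrophil UMIs, ranked anew, it had 10.9 and 9.76 CPM in adult and young members, against 12.7 and 6.43 CPM in the other base cells. S100a8 had 2171 and 404 CPM in adult and young members, against 85.7 and 67.6 CPM in adult and young other base cells, and 232 and 231 CPM in adult and young members, against 42.9 and 45.6 CPM in the other base cells without neutrophil-marked cells. It thus stayed higher in members, while S100a9 did not pass in either direction. G0s2 had 257 and 13.6 CPM in adult and young members, against 10.04 and 3.57 CPM in adult and young other base cells, and 3.62 and 1.22 CPM in adult and young members, against 2.56 and 1.06 CPM in the other base cells without the marked cells. Gm5483, a stefin-like gene in a family of near-identical copies whose count is uncertain, had 148 and 33.1 CPM in adult and young members, against 5.13 and 5.35 CPM in adult and young other base cells, and 0 and 4.15 CPM in adult and young members, against 2.63 and 1.73 CPM in the other base cells, without the marked cells. Hdc, the enzyme that makes histamine, had 117 and 26.7 CPM in adult and young members, against 12.4 and 9.32 CPM in adult and young other base cells, and 9.06 and 5.12 CPM in adult and young members, against 4.49 and 3.35 CPM in the other base cells without them.

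Of 2704 genes that reached 50 CPM in any of the 4 groups of cells, 81 (3.0%) were higher in members and 65 (2.40%) were lower, the genes of the score included. Without neutrophil-marked cells, 69 (2.57%) of 2683 were higher and 63 (2.35%) lower, and 61 of the 81 and 56 of the 65 genes were again among them. With the thinned score, 64 of 2639 genes were higher and 47 lower, and 54 of the 81 and 41 of the 65 genes were again among them. The 15 genes with the largest ratios in each direction were S100a9, S100a8, Gm5483, G0s2, Cxcl3, Slpi, Hdc, AC110211.1, Arg2, Fpr2, Sgms2, Cxcl1, Dgat2, Tnfaip6 and Ptgr1 among the higher genes, and Ccl17, Ckb, C1qa, Ccl24, Cd72, Mgl2, Ch25h, Slamf9, C1qc, Ly86, Gatm, C1qb, Ccnd1, H2-Eb1 and Ccl12 among the lower.

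**Figure D2:**
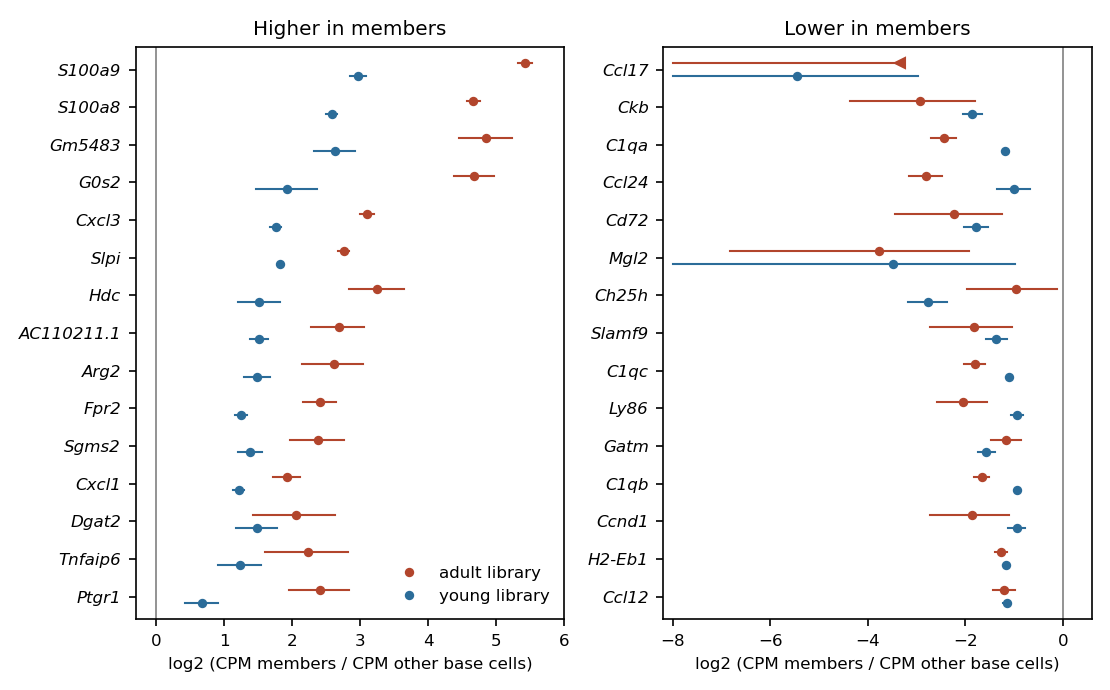
Log2 ratio of CPM in members over CPM in other base cells for the 15 genes with the largest mean ratios in each direction, in the adult (red) and young (blue) libraries; bars are 95% counting intervals, and bars of Ccl17 and Mgl2 are cut at -8. The adult ratio of Ccl17 is an upper bound (triangle), since adult members held 0 UMIs. The adult ratio lies further from 0 than the young one in all 15 higher genes.

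The chemokines that draw neutrophils through the receptor CXCR2 were higher in members. Cxcl3 (chr5:90786103-90789600, plus strand) had 1562 and 389 CPM in adult and young members, against 182 and 115 CPM in adult and young other base cells, a ratio of 8.58-fold (95% interval 7.96 to 9.24) in the adult library and 3.38-fold (3.201 to 3.57) in the young library. Cxcl1 (chr5:90891241-90893115, plus strand) had 465 and 319.6 CPM in adult and young members, against 123 and 138 CPM in adult and young other base cells. Cxcl2, their neighbour on the same chromosome, had 12699 and 8221 CPM in adult and young members, against 3819 and 4302 CPM in adult and young other base cells, and its ratios of 3.32 and 1.91 (adult, young) were the smallest of these 3 genes. All 3 genes were higher in members of either library. Cxcl3 was uneven among members, with a UMI in 33 of 68 adult and 164 of 432 young members, and 10 adult cells held 80.1% of the adult UMIs. Cxcl1 was more uneven in the adult library, where 24 of 68 members had a UMI and 10 cells held 89.1% of the UMIs. In the young library 29.4% of members had a Cxcl1 UMI, against 24.4% of other base cells. Cxcl3 had 1506 and 337 CPM in adult and young members, against 161 and 97.1 CPM in the other base cells without neutrophil-marked cells.

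Cxcl3, Cxcl1 and Cxcl2 lie in 1 cluster on chromosome 5, and their promoters are shown because these genes were higher together. The 250 bases before each RefSeq gene start (GRCm38.p6, plus strand) are at chr5:90785851-90786100 for Cxcl3, chr5:90890995-90891244 for Cxcl1 and chr5:90903649-90903898 for Cxcl2. Capitals mark the longest run of bases that all 3 share, GGGAATTTCCC, which has the form of an NF-kB site.
Cxcl3: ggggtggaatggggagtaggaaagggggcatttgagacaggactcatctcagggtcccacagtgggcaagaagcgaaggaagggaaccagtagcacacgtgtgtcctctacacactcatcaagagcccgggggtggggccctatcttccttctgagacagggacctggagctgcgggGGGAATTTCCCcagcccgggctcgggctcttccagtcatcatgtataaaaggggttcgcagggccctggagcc
Cxcl1: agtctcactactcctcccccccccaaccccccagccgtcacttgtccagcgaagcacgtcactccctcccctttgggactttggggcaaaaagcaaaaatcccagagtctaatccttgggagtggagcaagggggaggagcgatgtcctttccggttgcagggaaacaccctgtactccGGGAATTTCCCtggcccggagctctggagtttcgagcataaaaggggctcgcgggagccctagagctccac
Cxcl2: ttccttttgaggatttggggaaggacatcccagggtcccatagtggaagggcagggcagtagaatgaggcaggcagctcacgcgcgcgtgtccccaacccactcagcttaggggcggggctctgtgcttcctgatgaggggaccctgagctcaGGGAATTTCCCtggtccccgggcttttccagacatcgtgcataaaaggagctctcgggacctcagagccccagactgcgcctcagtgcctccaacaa
The run of 11 bases, searched on both strands, begins 73 bases before the start of Cxcl3, 71 before that of Cxcl1 and 97 before that of Cxcl2. It was found in 14 of 32851 promoters (0.0426%). Of the 2144 genes at 50 CPM or more with a promoter in the table, these 3 alone held it, all among the 58 higher genes, and it was in none of the 46 lower genes or of the 3 score genes with a promoter. Since it was picked as what these 3 share, its presence in them is no result. The AP-1 motif TGANTCA was in 8 of the 58 higher genes (13.8%) and 5 of the 46 lower genes (10.9%), beside 6.95% of the 2144 genes and 6.75% of all promoters. The PU.1 motif GAGGAA was in 18 of the 58 (31.0%) and 13 of the 46 (28.3%), beside 26.7% of the 2144 genes and 23.3% of all promoters. The PU.1 and AP-1 motifs were searched on both strands too, and a match says only that these letters stand in the window.

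Chemokines as a whole went both ways. Of 21 measured chemokines, 6 were higher and 5 lower in members, with a median of 0.10. Besides the 3 CXCR2 ligands, Ccl3, Ccl6 and Ccl9, ligands of CCR1, were higher. Ccl3 had 1040.0 and 649.7 CPM in adult and young members, against 382 and 371 CPM in adult and young other base cells. Ccl7 and Ccl12, ligands of the monocyte receptor CCR2, were lower, as were the eosinophil attractant Ccl24 and the T cell attractants Ccl17 and Cxcl9. Ccl12 had 344 and 395 CPM in adult and young members, against 791 and 877 CPM in adult and young other base cells. Without neutrophil-marked cells, Ccl6, Ccl7 and Ccl12 were not called, leaving 5 chemokines higher and 3 lower, with a median of -0.05. Ccl17 had 0 UMIs in adult members, which allows up to 6.07 CPM, and 1 UMI (0.238 CPM) in young members, against 75.5 and 10.4 CPM in adult and young other base cells. With 3 counts as the floor, it was at least 12.4-fold lower in adult members, and the young ratio was 0.0229 (0.000578 to 0.128).

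Genes of acute inflammation were higher together. Of 14 measured inflammatory cytokines and enzymes, 8 were higher and none lower, with a median of 1.01. These were Il1a, Il1b, Il18, Il23a, Nos2, Slpi, Cd14 and Inhba. Slpi, which encodes a secreted inhibitor of neutrophil proteases, had 2837 and 1772 CPM in adult and young members, against 420.3 and 501 CPM in adult and young other base cells, a ratio of 6.75-fold (95% interval 6.39 to 7.13) in the adult library and 3.53-fold (3.44 to 3.63) in the young library. It was detected in 61 of 68 adult and 351 of 432 young members, but 10 adult members held 57.8% of the adult Slpi UMIs. For Il1a, Nos2 and Cd14, the 10 adult members with the most UMIs held 58.6%, 54.6% and 49.4%. Il23a, a subunit of interleukin-23, had 42.5 and 13.1 CPM in adult and young members, against 6.07 and 5.79 CPM in adult and young other base cells. Nos2, the inducible nitric oxide synthase, had 619 and 567 CPM in adult and young members, against 205 and 318 CPM in adult and young other base cells. Cd14, the co-receptor for lipopolysaccharide, had 2754 and 2244 CPM in adult and young members, against 1017 and 1198 CPM in adult and young other base cells. Tnf was not called, with 289 and 387 CPM in adult and young members, against 254 and 315 CPM in adult and young other base cells. Without neutrophil-marked cells the count was again 8 of 14, beside 1.72% of all measured genes.

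Other genes with large ratios belonged to lipid, arginine and receptor biology. Fpr2, the neighbour of Fpr1 on chromosome 17 and a related receptor for formylated peptides and lipid ligands, had 308 and 253 CPM in adult and young members, against 58.2 and 107 CPM in adult and young other base cells, a ratio of 5.28-fold (95% interval 4.46 to 6.22) in the adult library and 2.38-fold (2.22 to 2.54) in the young library. Fpr1 and Fpr2 are related in sequence, so reads could in part be shared between them. Among cells with at least 3000 UMIs, thinned to 3000, 49.1% of adult and 48.4% of young members had a UMI of Fpr2. The other base cells gave 14.7% and 25.7%. Unthinned shares of all cells were 70.6% and 76.4%, against 31.4% and 50.4%. Of the 12 measured chemoattractant receptors besides Fpr1, only Fpr2 was higher and Cx3cr1, the fractalkine receptor, was lower (median 0.13).

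Arg2, the mitochondrial arginase, had 91.1 and 66.2 CPM in adult and young members, against 14.9 and 23.7 CPM in adult and young other base cells. Sgms2, a sphingomyelin synthase of the plasma membrane, had 117 and 79.96 CPM in adult and young members, against 22.6 and 30.7 CPM in adult and young other base cells. Dgat2, which makes triglyceride, had 52.6 and 26.9 CPM in adult and young members, against 12.6 and 9.65 CPM in adult and young other base cells. These 3 enzymes were higher in both libraries, with ratios of 6.100 and 2.796, 5.19 and 2.601 and 4.16 and 2.79 (adult, young). Tnfaip6, a secreted hyaluronan-binding protein induced in inflammation, had 50.6 and 24.04 CPM in adult and young members, against 10.7 and 10.2 CPM in adult and young other base cells. Ptgr1, a reductase of prostaglandins and leukotrienes, had 95.1 and 37.1 CPM in adult and young members, against 17.9 and 23.3 CPM in adult and young other base cells, and its young ratio of 1.59 was close to the 1.5-fold limit. AC110211.1 (chr15:76266461-76269839, minus strand), a long noncoding RNA that GENCODE M21 names Mirt2 and that overlaps Spatc1 on the other strand, had 123 and 135 CPM in adult and young members, against 19.3 and 47.4 CPM in adult and young other base cells. All 6 were also higher without neutrophil-marked cells.

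Several pathways around the score genes were not called. Besides Thbs1, 14 measured genes of thrombospondins, their receptors and TGF beta activation held no called gene (median -0.03). Cd47, a receptor of thrombospondin-1, had 380.4 and 379 CPM in adult and young members, against 318 and 294 CPM in adult and young other base cells. None of 13 calcium channel and store-operated entry genes besides Cacna1d (median 0.02), none of 11 phosphoinositide phosphatases besides Inpp5j (median -0.09) and none of 12 PI3 kinase genes (median 0.04) was called. Of the lists built around score genes, only the receptor list thus held a called gene.

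Smaller groups showed a few higher genes. Of 14 C-type lectins and Fc receptors, Clec4d and Clec4e, receptors that sense microbial glycolipids and dead cells, were higher (median 0.10). Clec4d had 1101 and 1296 CPM in adult and young members, against 391 and 732 CPM in adult and young other base cells. Of 11 targets of the oxidative stress factor NRF2, Slc7a11, the cystine importer, and Gsr, glutathione reductase, were higher (median 0.68). Of 18 hypoxia and glycolysis genes, Hilpda, a lipid droplet protein, was higher (median 0.36), and of 12 lipid-associated macrophage genes, Cd9 and Abca1 were (median 0.13). Without neutrophil-marked cells, Clec4e and Cd9 were not called, with young ratios of 1.46 and 1.45. Hilpda had 1169.5 and 1067 CPM in adult and young members, against 547 and 592 CPM in adult and young other base cells. None of 20 type I interferon genes (median 0.20) and none of 16 MHC class I genes (median -0.10) was called.

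**Figure D3:**
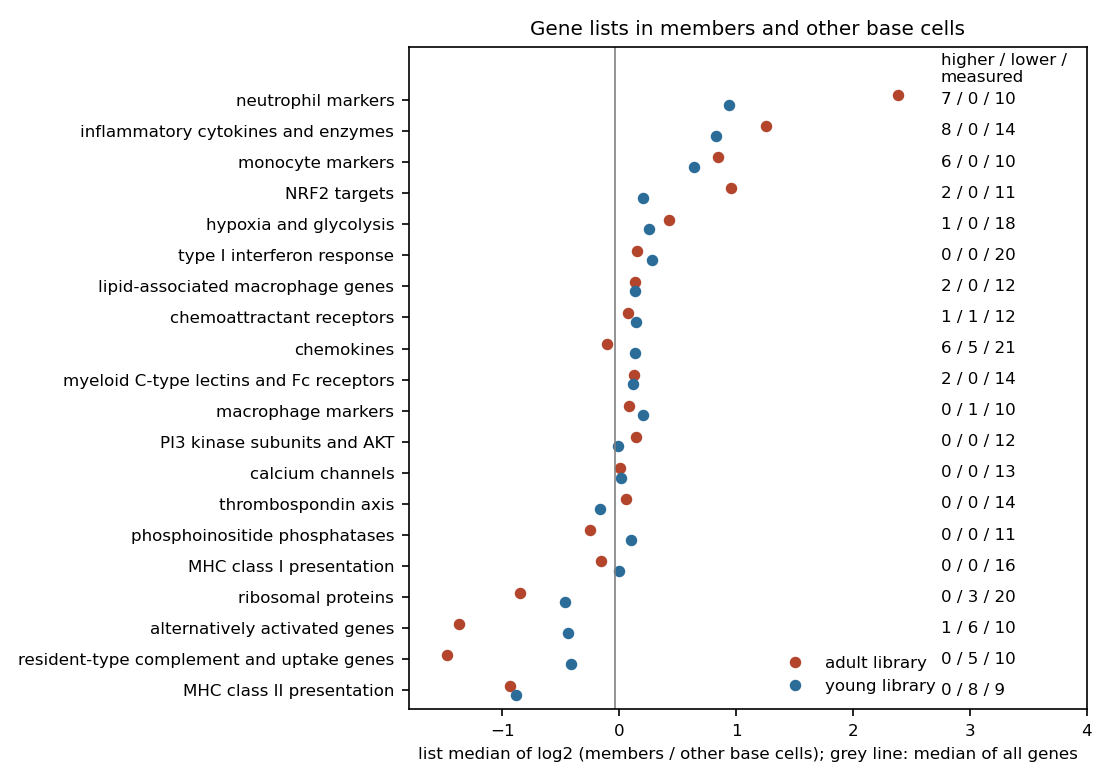
Median log2 ratio of members over other base cells for 20 gene lists (rows), in the adult (red) and young (blue) libraries, with the counts of genes called higher, called lower and measured at the right. The grey line is the median of all genes at 10 CPM or more, -0.04. Inflammatory and monocyte lists lie to its right and MHC class II, complement and alternatively activated lists to its left in both libraries.

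The genes lower in members included those of antigen presentation, complement and alternative activation. Of 9 measured MHC class II genes, 8 were lower and none higher (median -0.99). H2-Eb1, a beta chain of MHC class II, had 1087 and 819.6 CPM in adult and young members, against 2605 and 1846 CPM in adult and young other base cells, a ratio of 0.417-fold (95% interval 0.382 to 0.454) in the adult library and 0.444-fold (0.429 to 0.459) in the young library. H2-DMb2, a chain of the peptide exchanger H2-DM, had 14.2 and 15.2 CPM in adult and young members, against 50.5 and 27.8 CPM in adult and young other base cells. Cd74, the invariant chain, had 7181 and 5316 CPM in adult and young members, against 11426 and 9014 CPM in adult and young other base cells. H2 genes have near-copies, so the split of reads between them is uncertain. Without neutrophil-marked cells, 7 of 9 were lower, beside 1.99% of all measured genes.

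Of 10 resident-type complement and uptake genes, 5 were lower and none higher (median -0.95). C1qa, a chain of the complement starter C1q, had 265 and 695 CPM in adult and young members, against 1439.7 and 1591 CPM in adult and young other base cells, a ratio of 0.184-fold (95% interval 0.154 to 0.219) in the adult library and 0.437-fold (0.421 to 0.453) in the young library. C1qb and C1qc, the other chains, were lower with ratios of 0.316 and 0.518 and 0.285 and 0.463 (adult, young). Ms4a7 and the uptake receptor Axl were lower too. Among cells with at least 3000 UMIs, thinned to 3000, 26.3% of adult and 39.8% of young members had a C1qa UMI. The other base cells gave 50.1% and 57.8%. Unthinned shares of all cells were 39.7% and 56.5%, against 62.6% and 70.2%. C1q was lower in members but present.

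Of 10 measured genes of alternative activation, 6 were lower and 1 higher (median -0.85). The lower ones were Mgl2, Ccl17, Ccl24, Pdcd1lg2, Cdh1 and Fcrls. Ccl24, a ligand of the eosinophil receptor CCR3, had 154 and 18.3 CPM in adult and young members, against 1074 and 36.8 CPM in adult and young other base cells. Mgl2, a galactose-binding lectin, had 4.05 and 0.238 CPM in adult and young members, against 55.5 and 2.68 CPM in adult and young other base cells, from 2 UMIs in adult and 1 UMI in young members. Chil3, which encodes the chitinase-like protein Ym1, went the other way, with 783 and 191 CPM in adult and young members, against 366 and 116 CPM in adult and young other base cells. These values differed more between the ages than between members and other base cells for Ccl24, whose level in young cells was low in either group.

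Single genes completed the lower side. Ckb, brain-type creatine kinase, had 12.1 and 52.8 CPM in adult and young members, against 92.4 and 191 CPM in adult and young other base cells, and Gatm, which catalyses the first step of creatine synthesis, had 178 and 70.2 CPM in adult and young members, against 397 and 208 CPM in adult and young other base cells. The 2 genes of creatine metabolism were lower in both libraries. Cd72, an inhibitory lectin receptor, had 16.2 and 34.7 CPM in adult and young members, against 76.3 and 119 CPM in adult and young other base cells. Ly86, the partner of the toll-like receptor homologue RP105, had 66.8 and 133 CPM in adult and young members, against 275 and 255 CPM in adult and young other base cells. Slamf9, of the SLAM receptor family, had ratios of 0.284 and 0.389 (adult, young). Ch25h, which makes an oxysterol, had 22.3 and 12.9 CPM in adult and young members, against 43.4 and 87.1 CPM in adult and young other base cells, and its adult interval ended at 0.9200, close to 1. Ccnd1, cyclin D1, had 28.3 and 64.97 CPM in adult and young members, against 103 and 125 CPM in adult and young other base cells, and 3 of 6 measured cell cycle genes (Mcm6, Stmn1 and Ube2c) were lower, with a median of -1.03. Without neutrophil-marked cells Mcm6 was not called and Birc5 was lower instead. Of 20 ribosomal protein genes 3 were lower (median -0.65).

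Across ranks of the score, levels of Slpi, C1qa, H2-Eb1 and Cxcl3 changed on both sides of rank 500, whereas S100a9 and S100a8 dropped there in the adult library. From ranks 1 to 250, 251 to 500, 501 to 1000, 1001 to 2000 and the rest, Slpi had 3948, 2322, 1590.0, 759 and 369 CPM in the adult library. The young library gave 2289, 1233, 1108, 797 and 393 CPM. C1qa ran the other way, with 192, 299, 496, 682 and 1511 CPM in the adult and 586, 808, 894, 1262 and 1713 CPM in the young library. H2-Eb1 had 492, 1362, 1180.2, 1426 and 2716 CPM in the adult library, where the order was broken at ranks 251 to 500, and 719, 924, 991, 1162 and 2046 CPM in the young library. Cxcl3 had 2319, 1211, 843, 418 and 150.5 CPM in the adult and 521, 251, 283, 231 and 78.8 CPM in the young library, where the third range exceeded the second. S100a9 had 2543, 2017, 311, 34.1 and 45.5 CPM and S100a8 had 2868, 1848, 407, 113 and 75.9 CPM in the adult library. In the young library S100a9 had 355, 109, 123, 42.5 and 19.3 CPM, with no drop at rank 500. Set against the next 500 cells by score, members had 9 higher and 2 lower of 2686 genes (0.335% and 0.0745%).

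**Figure D4:**
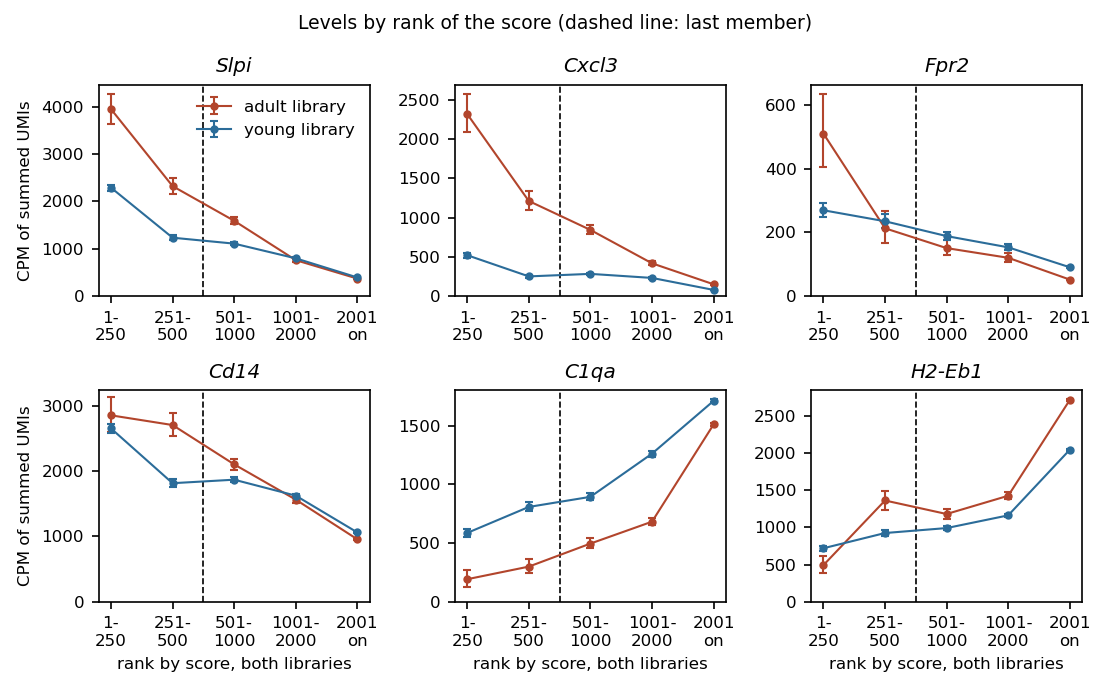
CPM of summed UMIs for 6 genes in 5 ranges of rank by score, for the adult (red) and young (blue) libraries; bars are exact 95% counting intervals and the dashed line separates members from other base cells. Slpi, Cxcl3, Fpr2 and Cd14 are highest in the first range, and C1qa and H2-Eb1 in the last. The adult ranges hold 26, 42, 118, 286 and 3793 cells.

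Adult members were then set against young members. Of 2554 genes at 50 CPM or more in either, 132 (5.17%) were higher and 199 (7.79%) lower in adult members, called at 1.5-fold with an interval excluding 1. In the other base cells, 47 (1.91%) of 2457 were higher and 91 (3.70%) lower. The adult members are 68 cells with 494229 UMIs in all, and the larger counts stand beside that smaller sum, whose part was not tested. Adult members also held more neutrophil RNA, 4909 CPM against 753 CPM in young members. Without neutrophil-marked cells, 130 (5.12%) of 2538 genes were higher and 169 (6.66%) lower in adult members.

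Neutrophil genes led the genes higher in adult members, with G0s2, S100a9, S100a8, Gm5483 and Hdc among the first 10. S100a9 had 2183 CPM in adult members and 235 CPM in young members, a ratio of 9.29 (8.52 to 10.1), and the ratio in other base cells was 1.702 (1.598 to 1.81). Without neutrophil-marked cells it had 10.9 and 9.76 CPM in adult and young members, and S100a8 had 232 and 231 CPM. G0s2 and Gm5483 were not called there either, nor was Hdc, which is among the genes that mark the cells left out. Cxcl3 had 1562 CPM in adult members and 389 CPM in young members, a ratio of 4.02 (3.68 to 4.38), against 1.58 (1.53 to 1.64) in other base cells. That difference was also present without neutrophil-marked cells, at 1506 CPM in adult and 337 CPM in young members, and it rests on few cells, since 10 adult members held 80.1% of the adult UMIs.

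Ccl24, Timp1 and Chil3 were higher in adult cells of both kinds. Ccl24 had 154 CPM in adult members and 18.3 CPM in young members, a ratio of 8.39 (6.03 to 11.7), and 29.1 (27.9 to 30.5) in other base cells. Timp1, an inhibitor of matrix metalloproteinases, had 170.0 CPM in adult members and 36.7 CPM in young members, a ratio of 4.64 (3.51 to 6.09), and 6.05 (5.75 to 6.37) in other base cells. Chil3 had 783 CPM in adult members and 191 CPM in young members, a ratio of 4.097 (3.62 to 4.63), and 3.15 (3.06 to 3.24) in other base cells. These 3 differences between the libraries were thus seen in members and in other base cells. Of 7 alternative activation genes measured in members, 3 were higher and none lower in adult members (median 0.60, and 1.61 in other base cells). Over all 6686 genes measured in members, 4.41% were higher and 5.41% lower in adult members. Of 14 inflammatory genes, 5 were higher in adult members, namely Il1a, Il23a, Ptgs2, Slpi and Inhba, and none lower (median 0.33, and -0.19 in other base cells). Without neutrophil-marked cells, 3 of 14 were higher, beside 4.01% of all measured genes, and 1 was lower.

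Complement genes were lower in adult members. Of 10 resident-type genes, 6 were lower and none higher (median -0.86, and -0.22 in other base cells). C1qa had 265 CPM in adult members and 695 CPM in young members, a ratio of 0.381 (0.318 to 0.454), and 0.905 (0.896 to 0.914) in other base cells. Apoe, the apolipoprotein of macrophages, had 688 CPM in adult members and 1670.2 CPM in young members, a ratio of 0.412 (0.368 to 0.459), and 1.16 (1.15 to 1.17) in other base cells. Selenop, a selenium carrier, had 24.3 CPM in adult members and 82.8 CPM in young members. Without neutrophil-marked cells, 7 of the 10 were lower, beside 4.93% of all measured genes. When the 250 highest cells of each library were taken instead, so that adult members reached lower scores, the median was -0.39. Over all 20 alternative choices of cells or settings, this median ran from -1.85 to -0.13.

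Interferon genes were lower in adult cells of both kinds. Of 19 measured type I interferon genes, 11 were lower and none higher in adult members (median -0.63, and -0.49 in other base cells). Irf7, which drives interferon production, had 649 CPM in adult members and 1211 CPM in young members, a ratio of 0.536 (0.478 to 0.6004), and 0.545 (0.536 to 0.553) in other base cells. Rsad2, the antiviral protein viperin, had 263 CPM in adult members and 436 CPM in young members. MHC class II genes were lower in members at either age and differed little between ages, with 1 of 9, H2-DMb1, higher in adult members (median 0.40). Of 16 measured matrix genes, 5 were higher in adult members (Fn1, Spp1, Timp1, Mmp9 and Mmp13) and 2 lower (Mmp8 and Mmp12), with a median of 0.35. Mmp8 and Mmp9 are also neutrophil genes, and without neutrophil-marked cells 3 of 14 matrix genes were higher (Fn1, Spp1 and Timp1) and 1 lower (Mmp12), with a median of 0.17. Of 10 macrophage markers, 4 were lower in adult members (Adgre1, Fcgr1, C1qa and Apoe), with a median of -0.54, and 3 were lower without neutrophil-marked cells.

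Further genes lower in adult members included Ckb, Selenom, Klrk1, Mid1, Rgs1, Slamf7, Gm26917 and Pf4. All of these but Pf4 were also lower in adult than in young other base cells. In adult and young other base cells, Mid1 had 18.4 and 85.5 CPM and Slamf7 had 66.4 and 139 CPM. Klrk1 had 57.9 and 112 CPM there, and Gm26917 had 87.9 and 118 CPM. Rgs1, a brake on chemokine receptor signalling, had 328 CPM in adult members and 907 CPM in young members, a ratio of 0.362 (0.307 to 0.423), and 0.602 (0.594 to 0.6103) in other base cells. Selenom, a selenoprotein of the endoplasmic reticulum, had 95.1 CPM in adult members and 319.6 CPM in young members, with ratios of 0.298 (0.218 to 0.398) in members and 0.321 (0.3097 to 0.332) in other base cells. Klrk1, the receptor of stress ligands on lymphocytes, had 24.3 CPM in adult members and 86.9 CPM in young members, from 12 UMIs in adult members. Pf4, platelet factor of the CXC chemokine family, had 202 CPM in adult members and 504 CPM in young members, a ratio of 0.402 (0.325 to 0.491), and 1.201 (1.17 to 1.23) in other base cells. Its direction changed with the choice of members.

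**Figure D5:**
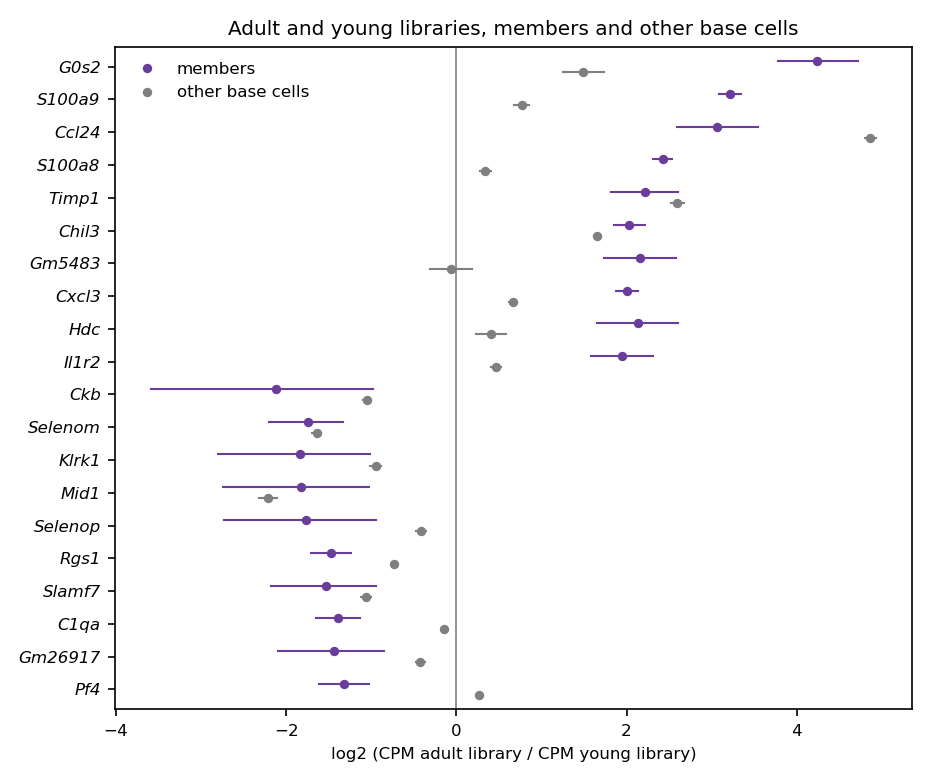
Log2 ratio of CPM in the adult library over CPM in the young library for the 20 genes named for the age comparison, in members (purple) and other base cells (grey), with 95% counting intervals. All of these genes but Gm5483 and Pf4 lie on the same side for both kinds of cell, and S100a9 is 9.29-fold higher in adult members, against 1.70-fold in other base cells.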

How the data were processed

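The data are 2 single-cell libraries of mCherry-sorted mouse tumour cells, 1 adult and 1 young, prepared, per the labels, with a 10x Genomics 3' kit (v2). The deposited files hold raw UMI counts of 31054 features per barcode, which the authors did not normalise, and Cell Ranger 3.0.2 and build mm10 appear in the submitters' processing notes. Samples were assigned by title. For strand handling, annotation and doublet removal, the sources used here give nothing. Each barcode held at least 500 UMIs. Of 31053 gene identifiers, 99.6% were found in GENCODE M21. Promoters come from RefSeq (GRCm38.p6).

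UMIs were summed per library and group and scaled to CPM (Python 3.11.15, numpy 2.4.6, scipy 1.17.1, pandas 2.3.3, scanpy 1.11.5). Log2 ratios of members over other base cells were taken within each library with a pseudocount of 5 CPM and averaged with equal weight. Ratios have exact conditional binomial intervals, shares Clopper-Pearson intervals and levels Poisson intervals, all 95% and for counting error only. Doublets were not called, so they should be taken as present. The contrasts and their intervals were tested on simulated data, drawn as Poisson counts of summed UMIs. That simulation held no spread between cells, so it does not cover genes whose UMIs lie in few cells.

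The members and the 33 gene lists and 14 cell type marker lists were chosen with earlier results of these data known. Named genes are the 15 called genes with the largest mean log2 ratio in each direction, the 10 in each direction for adult over young members, without mitochondrial, ribosomal protein, haemoglobin, immunoglobulin and score genes, then the score genes and the leading called genes of each list described. Cxcl2, Tnf, Ccr2, Csf1r, Apoe and the other genes shown for contrast were added after their values were seen. Alternatives varied the number of cells, the genes in the score, depth, the base filters, cells with neutrophil RNA or many UMIs, the weight of cells, the pseudocount and the minimum level. Some items are not reported here.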

Additional observations from a re-analysis of the deposited data

Results flagged for a closer look

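Il1r2, the decoy receptor for interleukin-1, went opposite ways in the libraries. It had 190 CPM in adult members, against 104 CPM in adult other base cells, and 49.3 CPM in young members, against 75.1 CPM in young other base cells. The log2 ratio of members over other base cells was 0.84 in the adult library and -0.56 in the young library, and the difference was not tested. Without neutrophil-marked cells Il1r2 had 54.4 and 49.3 CPM in adult and young members, against 96.1 and 69.3 CPM in the other base cells, so the ratio was below 1 in both libraries.

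High scores also occurred outside the base cells, in barcodes that no comparison used. Of the kept barcodes that failed the Csf1r or mCherry filter, 5.50% in the adult library (83 of 1509, interval 4.40 to 6.77) and 8.29% in the young library (141 of 1700, 7.03 to 9.71) scored at least as high as the lowest member. Most had no Csf1r UMI, 82 of 83 in the adult and 126 of 141 in the young library. Of these, 59 of 82 adult and 60 of 126 young barcodes held at least 2 UMIs of the neutrophil genes.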

How the results depend on the processing

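Of 99 recomputed counts and share ratios, 83 stayed within 1.5-fold of the reported count or within the interval of the reported ratio, and of 579 list medians 518 moved by under 1.5-fold in the same direction or by under 0.1. Of 1100 recomputed values of named genes, 595 stayed within the reported counting interval or unchanged, 490 moved outside it and 15 changed direction. Some agreement was fixed in advance. The pseudocount enters neither the counts nor the share ratio. The share ratio also does not use the weight of cells, the minimum level or the comparison cells, and the counts of adult against young members do not use the comparison cells. The share ratio of adult to young was 0.147 with 250 cells, 0.289 with 1000 cells and 0.297 with the thinned score, and taking 250 cells of each library gives no ratio by construction. Genes higher in adult than in young members numbered 77 with 1000 cells, 83 with the thinned score and 213 with each cell weighted the same. Without a minimum level, 147 genes were higher and 139 lower in members, and 325 were higher and 371 lower in adult members. At 20 CPM these counts were 122, 105, 238 and 321. Against the next 500 cells, 9 genes were higher and 2 lower in members. The minimum changes the number of genes tested, and for the others the cause was not tested.

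The chemokine median turned to -0.24 with 250 cells, -0.22, -0.12 and -0.11 with the score without Thbs1, Cacna1d or Inpp5j, -0.19 with 0 mCherry UMIs and -0.18 without the 6% of cells with the most UMIs. Between adult and young members, the MHC class II median was -0.54 with 250 cells, and the inflammatory median was -0.33 with 250 cells of each library. Pf4 turned to 0.10 with 1000 cells, 0.25 with the thinned score and 1.28 with at least 3 Csf1r UMIs, and Gm5483 to -0.75 with the last. Ch25h was 0.28 against the next 500 cells. In base cells with under 2 neutrophil UMIs, Gm5483 was -0.083 for members over other base cells and -0.87 for adult over young members. With the marked members left out and not replaced, an alternative chosen after seeing the data, these were -0.034 and -0.97, and G0s2 was -0.017 for members over other base cells. Leaving out members with 10 or more UMIs of S100a8 and S100a9, also chosen after seeing the data, gave -0.26 for S100a9, -0.46 for Gm5483 and -0.22 for G0s2 for members over other base cells. For adult over young members it gave -0.37 for S100a8, -0.14 for Gm5483 and -0.26 for the neutrophil median. All these are log2 values.

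No paired analysis was possible because each age has 1 library. The 494229 UMIs of adult members limit their genes at low levels most.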

Other observations

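Lists not described so far held few called genes in members. Of 18 measured myeloid transcription factors and 7 phagosomal oxidase genes none was called (medians 0.16 and 0.00). Of 8 eicosanoid genes 1, Ptges, was higher (median 0.18), and of 10 genes that restrain interleukin-1 and TNF 1, the TNF receptor gene Tnfrsf1b, was higher (median 0.35). Without neutrophil-marked cells Tnfrsf1b was not called, with a young ratio of 1.497, and Il1rn, the interleukin-1 receptor antagonist, was higher instead. Of 6 measured growth factor genes, Pdgfa and Pdgfb were lower (median -0.19, and 0.36 without neutrophil-marked cells). Of 16 interferon gamma response genes, 5 were lower in adult than in young members (Gbp4, Gbp7, Igtp, Iigp1 and Irf8), with a median of -0.32 in members and -0.29 in other base cells.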
